A study of Mus musculus with 75 samples.

Results

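Counts per gene were examined for 10 genes, *Fos*, *Jun*, *Junb*, *Fosl2*, *Atf3*, *Egr1*, *Klf6*, *Myc*, *Ets2*, and *Ier3*, chosen by symbol from the 32245 genes of the table. They are the immediate-early and injury transcription factors of the kidney, together with *Ier3*, an early-response gene that encodes no transcription factor. Whole-kidney RNA was sequenced from adult mice of both sexes 3 days after unilateral ureter obstruction (UUO), in which 1 ureter is ligated, and the contralateral (CL) kidney was the comparison. There were 75 libraries in 12 groups, which form 3 arms with their own controls. Each symbol had 1 row, and enough counts for a test were present for 8 of the 10 genes in the ABTAA arm (not *Fos* or *Junb*), for 10 in the Veptp arm, and for 9 in the Pdgfb arm (not *Junb*).

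In the ABTAA arm the mice received ABTAA (ABT, 7 CL and 7 UUO libraries), an antibody that binds angiopoietin-2 and turns it into an activator of the endothelial receptor TIE2, or a human IgG Fc control (IgG, 8 CL and 8 UUO). In the Veptp arm, VeKO mice (6 CL and 8 UUO) carried floxed *Veptp* alleles (the gene is listed as *Ptprb*) and a tamoxifen-inducible Cre recombinase under the endothelial *Cdh5* promoter, and VeWT mice (7 CL and 8 UUO) were littermates with 1 floxed allele and the same Cre that were not induced. More VeWT UUO libraries are labelled than the methods list VeWT mice, and which is extra is not known here. VE-PTP, its product, is a phosphatase that holds TIE2 inactive. In the Pdgfb arm, PbKO mice (4 CL and 4 UUO) carried floxed *Pdgfb* and a tamoxifen-inducible Cre active in the whole body, and PbWT mice (4 CL and 4 UUO) were littermates without Cre. The PbWT CL group also took in kidneys of 2 sham-operated mice, which the labels do not mark.

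Immediate-early genes are transcribed within minutes of a growth factor, stretch, or stress signal, before any new protein is made, because the factors that switch them on are already present and are activated by phosphorylation. *Fos*, *Jun*, *Junb*, and *Fosl2* encode subunits of AP-1, a dimer that binds DNA through leucine zippers. *Atf3*, a stress-induced member of the same wider family, is also controlled by the integrated stress response, while *Egr1*, *Klf6*, *Myc*, and *Ets2* encode factors of other DNA-binding families. In the kidney these genes are known as early responders of injured tubule cells, fibroblasts, and infiltrating leukocytes. In bulk tissue, fewer cells of a type and less RNA per cell cannot be told apart.

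Total counts per library ran from 172827 to 2341800 (median 757897), so that many values below rest on few counts. Levels are given in CPM, counts per library total rescaled by TMM factors, which correct for differences in library composition within an arm. Library names took 2 forms, 45 with letter and number written together and 30 with a low line (_) between them, and what the form stands for is not given in the sources used here. The share of counts taken by the ribosomal-RNA-linked genes *Gm42418* and *AY036118* was 9.18 to 21.8% in Veptp-arm libraries without a low line and 0.325 to 0.778% in those with one. Of the 75 libraries, 24 (22 without a low line and 2 with one, among them all 4 PbKO UUO) held at least 10 counts of both *Xist* and Y-linked genes. In the Veptp arm, 8 libraries with a low line carried 4 numbers shared by a VeWT and a VeKO kidney. *Ptprb* was at a median of 41.8 CPM in VeWT UUO and 28.0 CPM in VeKO UUO libraries with overlapping ranges (log2 fold change −0.69 ± 0.33 (SE), adjusted p = 0.9998). *Pdgfb* was lower in UUO libraries labelled PbKO (33.5, 35.9, 38.5, and 40.6 CPM) than in PbWT (56.1, 53.8, 43.0, and 57.5 CPM), with an adjusted p of 0.124. In CL kidneys it was not lower in PbKO, at 16.7, 17.6, 25.0, and 17.0 CPM in libraries labelled PbKO and 4.45, 9.78, 7.39, and 19.9 CPM in PbWT (log2 fold change 0.78 ± 0.33, adjusted p = 1.00). Genotypes below are therefore those of the labels.

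For 8 of the 10 genes a RefSeq promoter was matched (mouse build GRCm38.p6, the mm10 assembly). The entries for 5 are printed below over the 150 bases before the transcription start site, ending at the base before the annotated first exon, because they show which of these genes carry a cAMP- and AP-1-type element beside the start site. Capitals mark the 8-letter element TGACNTCA, its shorter form TGACG, written as CGTCA where it lies on the other strand, and the TATAAA box. *Fos* is shown from chr12:85473740-85473889 (plus strand), *Jun* from chr4:95052223-95052372 (minus), *Atf3* from chr1:191183334-191183483 (minus), *Klf6* from chr13:5861339-5861488 (plus), and *Ier3* from chr17:35821563-35821712 (plus), each in the direction of its gene. *Ier3* is shown as a window with neither TGACNTCA nor TGACG. The *Fosl2* window, not printed, also held neither, although *Fosl2* was called higher in IgG, VeWT, and PbWT (below). Whether the elements go with the response was not tested.
Fos: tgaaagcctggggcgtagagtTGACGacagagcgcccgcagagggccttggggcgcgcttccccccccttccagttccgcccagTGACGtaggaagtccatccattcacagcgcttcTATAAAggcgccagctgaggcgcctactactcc
Jun: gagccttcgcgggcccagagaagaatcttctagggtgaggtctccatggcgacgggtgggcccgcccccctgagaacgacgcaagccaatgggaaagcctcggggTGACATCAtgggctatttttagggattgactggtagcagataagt
Atf3: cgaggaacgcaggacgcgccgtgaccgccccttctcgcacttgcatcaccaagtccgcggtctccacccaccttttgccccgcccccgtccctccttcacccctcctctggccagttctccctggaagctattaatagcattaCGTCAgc
Klf6: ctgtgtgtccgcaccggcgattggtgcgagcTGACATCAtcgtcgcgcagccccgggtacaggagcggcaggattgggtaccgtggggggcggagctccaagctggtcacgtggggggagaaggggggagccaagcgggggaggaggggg
Ier3: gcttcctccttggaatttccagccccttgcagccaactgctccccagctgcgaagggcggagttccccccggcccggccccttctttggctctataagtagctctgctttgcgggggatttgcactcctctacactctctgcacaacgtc

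Motifs were searched over the same 250 bases before the start site in the 8 genes and in all 32851 RefSeq promoters, and every match in the 8 genes lay within the last 150. TGACNTCA was found in the windows of *Jun*, from 45 to 38 bases before the start site, and of *Klf6*, from 119 to 112 bases before it. Of all promoters, 7.49% held it. TGACG, which overlaps TGACNTCA where N is G, was in the *Fos* window at positions −129 to −125 and −66 to −62 and in the *Atf3* window at −7 to −3. It was also in the windows of *Junb* (−106 to −102) and *Ets2* (−32 to −28), and 17.8% of all promoters held it. The zinc-finger element GCGNGGGCG, the EGR1-type site, was in the *Fosl2* window at −79 to −71 (4.7% of all promoters). TATAAA was in the *Fos* window alone among the 8, at −33 to −28 (7.59% of all). The *Ier3* window held none of the letters searched, and no window held the AP-1 site TGANTCA (6.75% of all) or a CArG box, the serum response factor site (1.47% of all). Both strands were searched, except for TATAAA, which was searched on the strand of the gene, and the motifs were chosen after the sequences were seen. A match describes letters only. Sites farther than 250 bases before the start site were not searched, nor were *Egr1* and *Myc*, which had no matched promoter.

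At 3 days after UUO, *Klf6*, *Atf3*, *Fosl2*, *Myc*, *Jun*, *Egr1*, and *Ets2* were higher in the obstructed than in the CL kidneys of IgG-treated mice, and *Ier3* was not. Unless the exact test is named, adjusted p-values come from the quasi-likelihood test of edgeR. They were corrected by the Benjamini-Hochberg procedure across every gene tested in the arm, and they measure the spread between these libraries. By the methods each animal was an experimental unit and its CL kidney an internal control. CL and UUO libraries can therefore come from the same mice. No label states which do, and these tests treated all libraries as independent. Of the 8 genes tested, 7 were called higher at an adjusted p under 0.05, where 16.3% of all genes tested were called higher. These 7 were also called higher in VeWT, with *Fos*, *Junb*, and *Ier3* not called (10.0% of all genes), and in PbWT with *Fos* and *Ier3* not called (17.9% of all genes). Without TMM factors the median log2 fold change of all genes moved to 0.23 in IgG, 0.14 in ABT, 0.14 in VeWT, 0.12 in VeKO, and 0.41 in PbWT, and on that scale 7, 7, 7, 7, and 8 of the genes were called higher, where 26.0, 16.6, 11.6, 5.14, and 40.8% of all genes were. With TMM factors the median log2 fold change of the tested genes was 1.97 in IgG, 1.63 in VeWT, and 1.51 in PbWT, and that of all genes was 0.02, −0.01, and 0.04. The low-count filter can be met by 1 group alone, and *Atf3* and *Myc* had 0 to 6 and 0 to 5 counts per IgG CL library. Every UUO library was above every CL library for 3 of 8 genes in IgG (4.28% of all genes), 5 of 10 in VeWT (3.26%), and 7 of 9 in PbWT (16.5%).

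**Figure D1:**
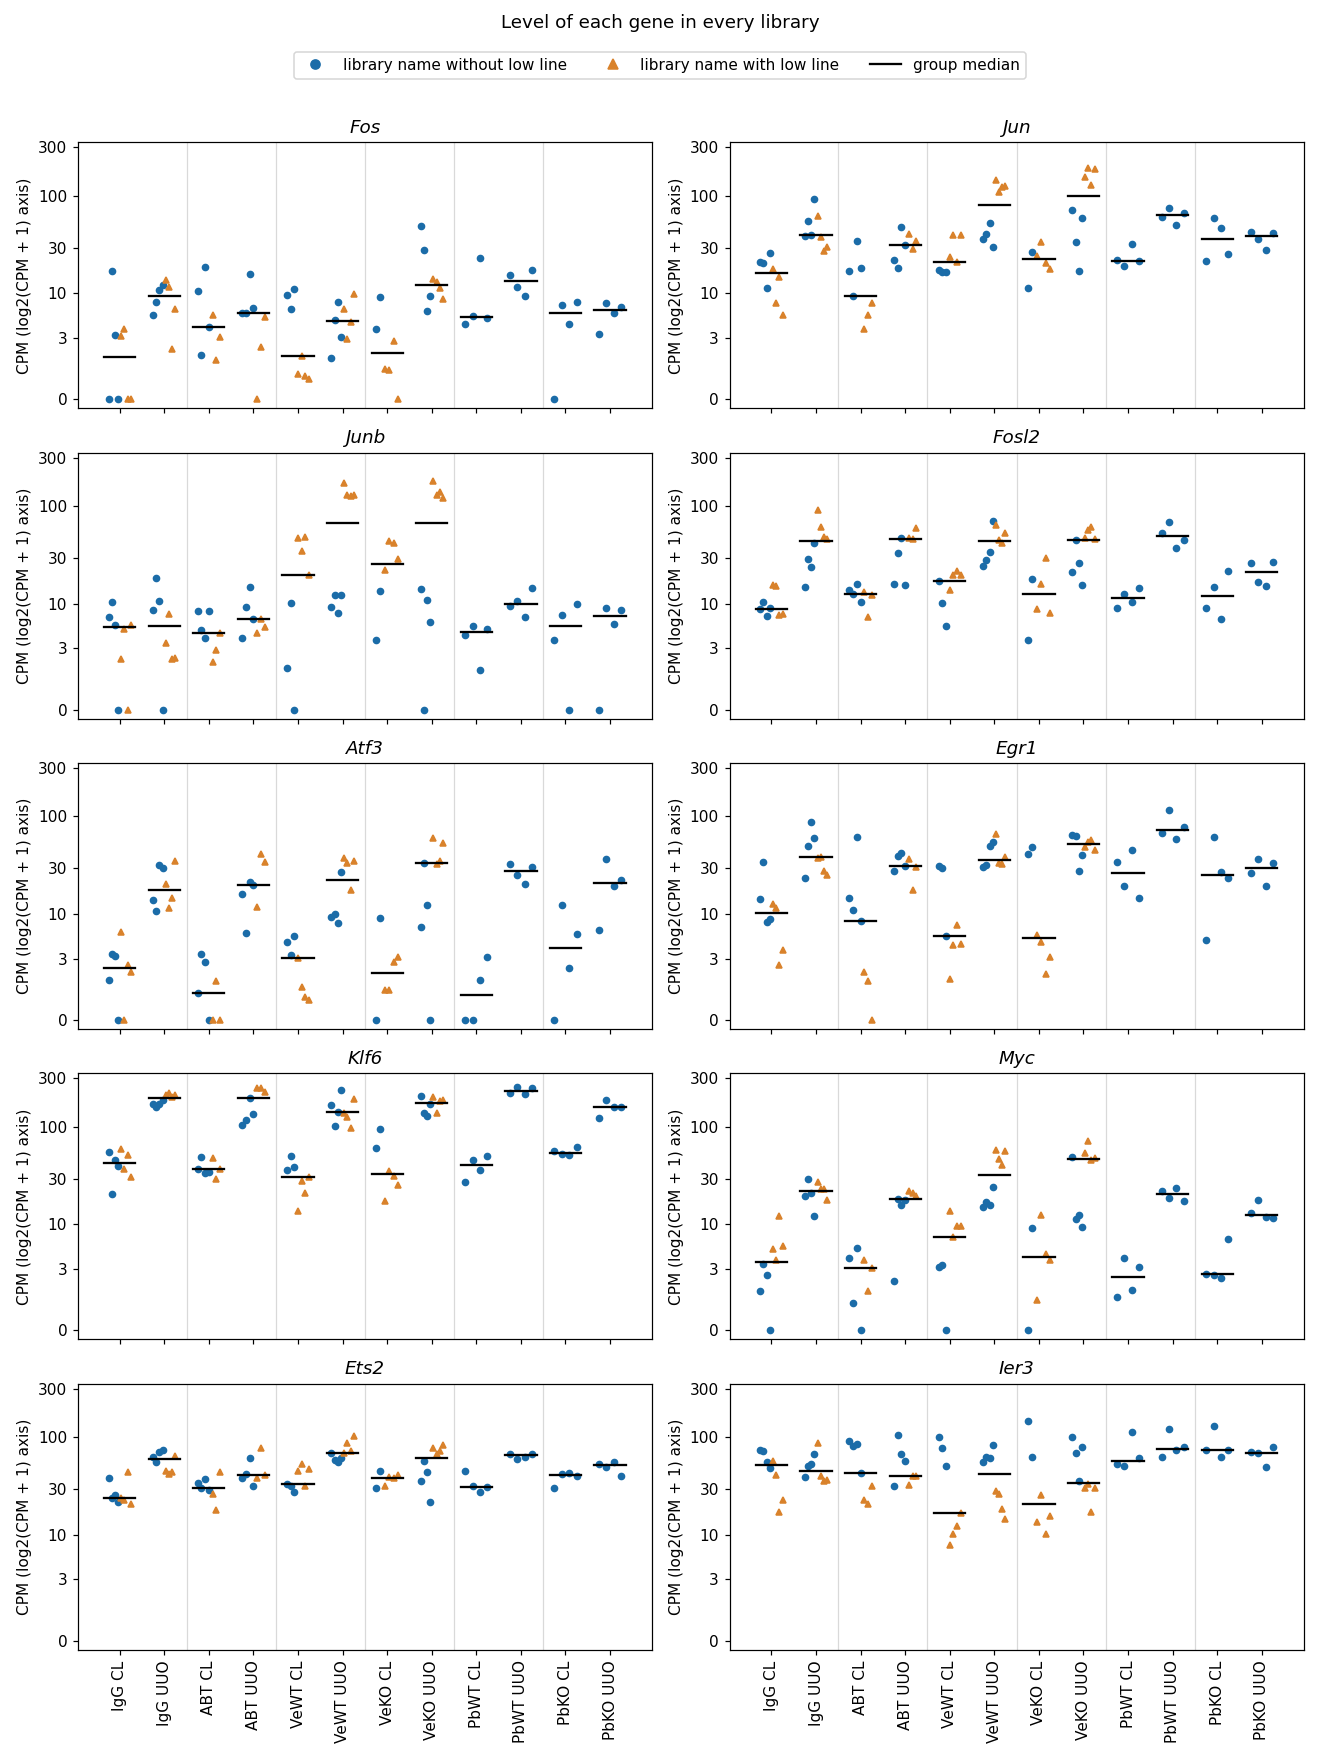
Levels of the 10 genes in 75 libraries, with 1 panel per gene, the 12 groups on the x axis, and CPM on a log2(CPM + 1) axis. Circles are libraries named without a low line, triangles those with one, and bars are group medians; *Klf6* stood at 155 to 213 CPM in IgG UUO libraries, above all IgG CL libraries (20.7 to 59.2 CPM).

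Among the AP-1 subunits, *Jun* encodes the partner that most AP-1 dimers share. It was at 5.79, 16.4, and 26.6 CPM (lowest, median, and highest) in IgG CL and at 27.9, 40.2, and 91.8 CPM in IgG UUO libraries, so that the groups did not overlap. Its log2 fold change was 1.61 ± 0.32 (SE, adjusted p = 0.000149). VeWT libraries stood at 16.9, 21.4, and 40.3 CPM in CL and at 30.7, 80.9, and 141 CPM in UUO kidneys and overlapped, with a log2 fold change of 1.68 ± 0.40 (adjusted p = 0.00297). These UUO libraries split by name form, at 109 to 141 CPM with a low line and 30.7 to 53.1 CPM without one. The log2 fold change was 1.98 ± 0.21 (adjusted p = 1.3e-06) with a low line alone and 1.30 ± 0.42 (adjusted p = 0.0403) without one. In PbWT the 4 CL libraries were at 22.3, 19.6, 32.5, and 22.0 CPM and the 4 UUO libraries, all of them higher, at 61.1, 75.1, 51.3, and 67.2 CPM (log2 fold change 1.42 ± 0.24, adjusted p = 3.82e-05).

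*Fosl2*, the FOS-family subunit FRA-2, which accumulates later and lasts longer than FOS, was called in the same 3 comparisons. Its levels were 7.39, 8.77, and 15.9 CPM in IgG CL and 15.2, 45.0, and 90.9 CPM in IgG UUO libraries. The lowest UUO library was just under the highest CL library, and the log2 fold change was 2.06 ± 0.32 (adjusted p = 3.2e-06). The IgG UUO libraries were at 47.2 to 90.9 CPM with a low line and 15.2 to 42.8 CPM without one, with log2 fold changes of 2.26 ± 0.29 and 1.54 ± 0.43 (adjusted p = 3.44e-06 and 0.0100). In VeWT it rose from 5.63, 17.5, and 22.1 CPM to 24.7, 44.1, and 70.7 CPM without overlap (log2 fold change 1.45 ± 0.31, adjusted p = 0.00113). The PbWT libraries were at 8.90, 12.6, 10.3, and 14.7 CPM in CL and 53.6, 69.8, 37.9, and 45.8 CPM in UUO kidneys (log2 fold change 2.14 ± 0.28, adjusted p = 1.37e-06), and they did not overlap either.

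*Fos*, the subunit with the briefest burst of transcription, was low in every group. It had 0 to 30 counts per library over the 75 libraries. IgG CL libraries stood at 0, 1.59, and 17.2 CPM and IgG UUO libraries at 2.14, 9.43, and 14.0 CPM, and the gene had too few counts for a test in that arm. In VeWT its levels were 0.572, 1.68, and 11.3 CPM in CL and 1.55, 4.84, and 9.79 CPM in UUO kidneys, with a log2 fold change of 0.90 ± 0.62 (adjusted p = 0.357). The PbWT groups overlapped through 1 CL library at 23.7 CPM, and the log2 fold change of 0.53 ± 0.43 did not pass the threshold (adjusted p = 0.358). Without that library, PbWT CL replicate 3, it was 1.35 (adjusted p = 0.0207). In VeWT libraries with a low line alone *Fos* was at 0.572 to 1.68 CPM in CL and 2.91 to 9.79 CPM in UUO kidneys, without overlap (log2 fold change 2.65 ± 0.57, adjusted p = 0.00109). In those without one it was at 6.76 to 11.3 CPM in CL and 1.55 to 7.96 CPM in UUO kidneys, with too few counts for a test.

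*Junb*, a JUN-family subunit that often limits the activity of JUN, was at 0, 5.46, and 10.3 CPM in IgG CL and at 0, 5.64, and 18.7 CPM in IgG UUO libraries. These ranges overlapped almost entirely, on 0 to 9 counts per library. In the Veptp arm its level split the libraries by the form of their name. VeWT UUO libraries with a low line were at 124, 129, and 169 CPM and those without one at 7.96, 10.8, and 12.5 CPM. The VeWT CL libraries were at 20.0, 41.6, and 49.0 CPM with a low line and at 0, 1.59, and 10.1 CPM without one. Pooled over both forms the log2 fold change in VeWT was 1.58 ± 0.72 (adjusted p = 0.136). With the form as a covariate it was 1.79 ± 0.25 (adjusted p = 5.94e-07), and in the libraries with a low line alone it was 1.89 ± 0.23 (adjusted p = 6.99e-06). In VeKO the corresponding values were 1.53 ± 0.77 (adjusted p = 0.262) pooled, 1.90 ± 0.27 (adjusted p = 1.65e-06) with the covariate, and 2.03 ± 0.24 (adjusted p = 4.03e-06) with a low line alone. In libraries without a low line *Junb* had too few counts for a test.

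*Atf3*, a repressor and activator of stress genes that is nearly silent in resting tissue, had the largest log2 fold change of the tested genes in each of the 6 UUO against CL comparisons when both name forms were pooled. In IgG it stood at 0, 2.21, and 6.35 CPM in CL and 10.7, 18.0, and 35.9 CPM in UUO libraries, without overlap (log2 fold change 2.87 ± 0.44, adjusted p = 1.28e-06). VeWT libraries were at 0.572, 3.10, and 5.63 CPM and at 7.96, 22.9, and 38.6 CPM, again without overlap (log2 fold change 3.47 ± 0.58, adjusted p = 4.48e-05). With a low line VeWT was at 0.572 to 3.10 CPM in CL and 18.1 to 38.6 CPM in UUO libraries (log2 fold change 4.58 ± 0.43, adjusted p = 7.53e-08). Without one it was at 3.38 to 5.63 and 7.96 to 27.6 CPM, with too few counts for a test, and in VeKO at 0 to 9.06 and 0 to 34.3 CPM. In PbWT it was at 0, 0, 1.48, and 3.15 CPM in CL, on 0 to 3 counts per library, and at 33.0, 25.4, 20.9, and 31.2 CPM in UUO libraries (log2 fold change 4.34 ± 0.59, adjusted p = 9.5e-07). Without PbWT CL replicate 4 it was 5.62, and with CL levels this close to 0 the size of the fold is imprecise.

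*Egr1*, a zinc-finger factor induced through ERK and serum response factor, was at 2.49, 10.3, and 34.5 CPM in IgG CL and at 23.7, 38.7, and 86.7 CPM in IgG UUO libraries. The ranges overlapped, and the log2 fold change was 1.87 ± 0.49 (adjusted p = 0.00272). In VeWT it was also 1.87 (± 0.53, adjusted p = 0.0119), with 1.55, 5.63, and 31.9 CPM in CL and 30.9, 36.5, and 65.8 CPM in UUO libraries. PbWT libraries stood at 34.5, 19.6, 45.8, and 14.7 CPM in CL and at 67.3, 115, 58.8, and 77.9 CPM in UUO kidneys, without overlap (log2 fold change 1.51 ± 0.35, adjusted p = 0.00125).

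The spread of *Egr1* in CL kidneys followed the form of the library name. In the Veptp arm the 8 CL libraries with a low line were at 1.55 to 7.59 CPM and the 5 without one at 5.63 to 49.8 CPM. The UUO libraries of both forms overlapped, at 32.9 to 65.8 CPM with a low line and 28.3 to 64.5 CPM without one. The log2 fold change of *Egr1* in UUO against CL kidneys was 3.20 ± 0.32 (adjusted p = 4.92e-07) in VeWT and 3.75 ± 0.35 (adjusted p = 1.67e-07) in VeKO libraries with a low line, but 0.70 ± 0.37 (adjusted p = 0.237) and −0.02 ± 0.45 (adjusted p = 0.998) in those without one. In the ABTAA arm the CL libraries stood at 0 to 12.7 CPM with a low line and 8.21 to 62.5 CPM without one. *Ier3* split by name form in both kidneys of the Veptp arm, with CL libraries at 7.75 to 25.9 CPM with a low line and at 50.7 to 143 CPM without one, and UUO libraries at 14.7 to 33.5 CPM and 36.2 to 100 CPM. The difference between forms was not itself tested, and what else differed between them was not tested.

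*Klf6*, a Krüppel-like zinc-finger factor induced after tubule injury, was the only one of the 10 genes whose UUO libraries stood above all CL libraries in each of the 6 groups. Its levels were 20.7, 43.0, and 59.2 CPM in IgG CL and 155, 190, and 213 CPM in IgG UUO libraries (log2 fold change 2.10 ± 0.18, adjusted p = 6.29e-11). VeWT libraries were at 14.0, 31.5, and 50.7 CPM and at 96.6, 139, and 230 CPM (log2 fold change 2.26 ± 0.28, adjusted p = 1.42e-06). In PbWT the CL libraries stood at 27.8, 46.1, 37.0, and 50.4 CPM and the UUO libraries at 215, 248, 211, and 239 CPM (log2 fold change 2.51 ± 0.16, adjusted p = 4.4e-11). Among the 12 group medians the highest was that of PbWT UUO (227 CPM), followed by ABT UUO (192), IgG UUO (190), VeKO UUO (173), PbKO UUO (156), and VeWT UUO (139). The ranges of neighbours in that order overlapped. The CL medians ran from 31.5 CPM in VeWT to 54.6 CPM in PbKO, and no CL library reached the range of the UUO libraries of its own group. Levels were scaled within each arm.

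*Myc*, which drives ribosome production and growth, was at 0, 3.67, and 12.4 CPM in IgG CL and at 12.2, 22.5, and 29.4 CPM in IgG UUO libraries, where the lowest UUO library was just under the highest CL library (log2 fold change 2.35 ± 0.37, adjusted p = 2.92e-06). The IgG CL libraries were at 3.89 to 12.4 CPM with a low line and 0 to 3.45 CPM without one, and the log2 fold change was 1.84 ± 0.35 and 3.32 ± 0.62 in these (adjusted p = 0.000379 and 0.000193). In VeWT it rose from 0, 7.27, and 14.0 CPM to 15.5, 33.1, and 58.2 CPM without overlap (log2 fold change 2.19 ± 0.46, adjusted p = 0.000874). These UUO libraries split by name form, at 41.6 to 58.2 CPM with a low line and 15.5 to 24.6 CPM without one. With a low line alone the log2 fold change was 2.37 ± 0.29 (adjusted p = 6.08e-06), and without one there were too few counts for a test. PbWT libraries were at 1.11, 4.19, 1.48, and 3.15 CPM in CL, on 1 to 3 counts, and at 22.4, 18.9, 24.1, and 17.5 CPM in UUO kidneys (log2 fold change 3.05 ± 0.37, adjusted p = 2.97e-07).

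*Ets2*, an ETS-family factor activated by ERK phosphorylation, had the smallest rise among the 7 called genes. In IgG it was at 21.2, 24.2, and 44.7 CPM in CL and 42.8, 59.9, and 73.4 CPM in UUO libraries (log2 fold change 1.03 ± 0.20, adjusted p = 0.000102). The log2 fold change was 0.87 ± 0.21 in VeWT (adjusted p = 0.0028), where 28.1, 33.5, and 54.2 CPM in CL and 55.7, 69.5, and 103 CPM in UUO libraries did not overlap. PbWT libraries rose from 45.6, 32.1, 28.1, and 31.5 CPM to 68.0, 60.3, 63.1, and 68.2 CPM (log2 fold change 0.91 ± 0.17, adjusted p = 0.000117).

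*Ier3*, an early-response gene whose product acts in cell survival, did not pass the threshold in any of the 6 UUO against CL comparisons over all libraries. IgG libraries were at 17.4, 52.7, and 73.6 CPM in CL and at 36.4, 45.5, and 87.4 CPM in UUO kidneys (log2 fold change 0.01 ± 0.31, adjusted p = 0.979). Its log2 fold change was between −0.31 ± 0.25 in PbKO and 0.31 ± 0.23 in PbWT, with −0.07 ± 0.31 in ABT, 0.18 ± 0.56 in VeWT, and 0.17 ± 0.61 in VeKO. The ranges of CL and UUO kidneys overlapped in all 6. In VeWT libraries with a low line alone it was called higher, at 7.75 to 17.2 CPM in CL and 14.7 to 28.7 CPM in UUO kidneys (log2 fold change 0.87 ± 0.32, adjusted p = 0.0489). In PbWT it was 0.60 (adjusted p = 0.0439) without CL replicate 3. Without TMM factors the PbWT value was 0.68 (adjusted p = 0.0187), and in IgG, ABT, VeWT, and VeKO the sign changed with the setting.

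**Figure D2:**
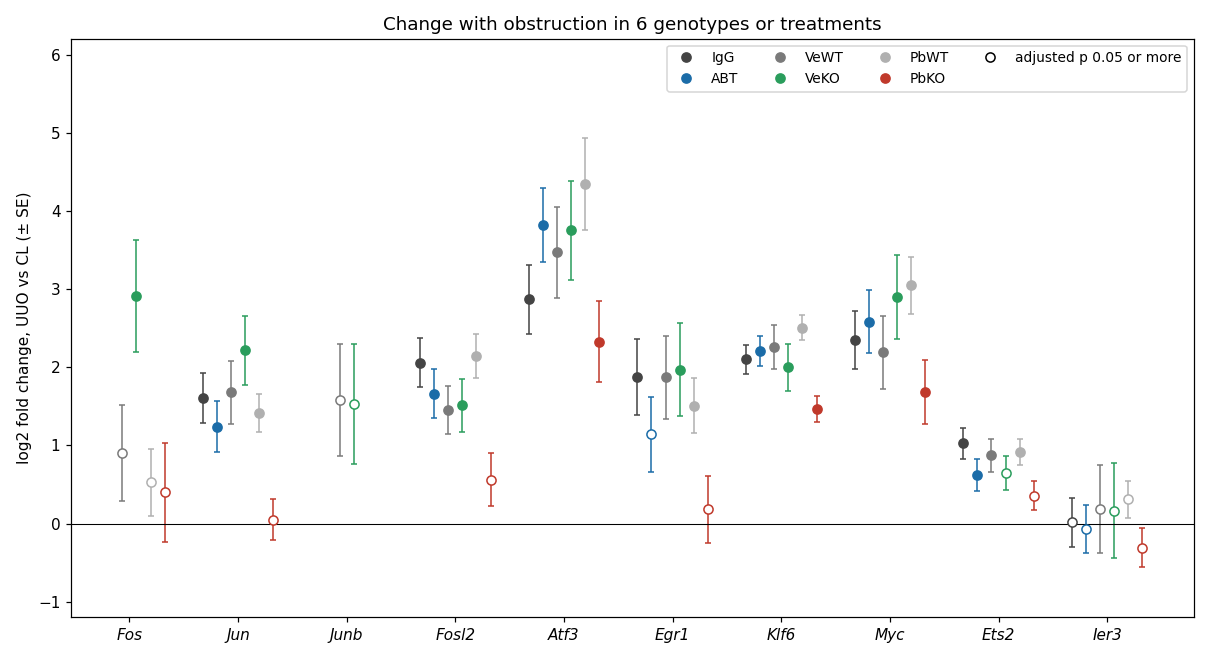
Log2 fold change of each gene in UUO against CL kidneys (y axis) in the 6 groups, with bars of ± 1 SE. Filled points passed an adjusted p of 0.05; in PbKO 3 of 9 genes were filled, against 7 of 9 in PbWT.

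The next question was whether activation of TIE2 changed these genes. In ABT-treated mice 6 of the 8 tested genes were called higher in UUO than in CL kidneys (12.6% of all genes were called higher), and *Egr1* and *Ier3* were not. The median log2 fold change of the 8 genes was 1.45, and that of all genes was −0.00. UUO libraries stood above all CL libraries for *Atf3* and *Klf6*, 2 of 8 genes (4.00% of all genes). *Klf6* was at 29.8, 37.2, and 49.4 CPM in ABT CL and 103, 192, and 240 CPM in ABT UUO libraries (log2 fold change 2.21 ± 0.19, adjusted p = 9.86e-11). *Atf3* rose from 0, 0.825, and 3.41 CPM to 6.13, 20.5, and 41.5 CPM (log2 fold change 3.82 ± 0.48, adjusted p = 4.3e-08). *Myc* rose by 2.58 ± 0.40 on the log2 scale (adjusted p = 5.05e-06), *Fosl2* by 1.66 ± 0.31 (adjusted p = 0.000105), and *Jun* by 1.24 ± 0.33 (adjusted p = 0.00428).

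For *Egr1* in ABT-treated mice the log2 fold change was 1.14 ± 0.47 (adjusted p = 0.0754), with 0, 8.32, and 62.5 CPM in CL and 17.9, 31.9, and 43.1 CPM in UUO libraries. ABT CL replicate 3, at 62.5 CPM, was above every UUO library, and without it the value was 2.17 (adjusted p = 0.000197). With the numbers that pair some libraries of this arm as a block, the log2 fold change was 1.39 (adjusted p = 0.0182). *Ets2* rose by 0.62 ± 0.20 (adjusted p = 0.0205), a call that was lost without ABT CL replicate 6, ABT UUO replicate 3, or ABT UUO replicate 6 (highest adjusted p 0.105).

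Between ABT and IgG mice none of the 8 genes was called, with a background of 0% of all genes called by edgeR in UUO kidneys, 0% in CL kidneys, and 0% for the difference of the responses. At an unadjusted p under 0.05 the counts were 0, 0, and 0. DESeq2 called 0 in all 3, and edgeR's exact test called 0 in both kidneys and could not be applied to the difference. The log2 fold changes of ABT against IgG in UUO kidneys ran from −0.43 to 0.12. *Egr1* had a difference of responses of −0.73 ± 0.69 and *Atf3* of 0.95 ± 0.73, so that the SEs allow differences in either direction.

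In VeKO mice 7 of the 10 genes were called higher in UUO than in CL kidneys, where 4.47% of all genes were. *Fos* was among them, while *Ets2*, *Junb*, and *Ier3* were not called. *Ets2* (log2 fold change 0.65 ± 0.22, adjusted p = 0.0696) was called without VeKO UUO replicate 1 or 4 (lowest adjusted p 0.0113). In VeKO UUO libraries it was at 67.0 to 82.6 CPM with a low line and 22.1 to 57.1 CPM without one. With the name form as a covariate 9 of the 10 genes were called in VeKO (10.7% of all genes), and with the replicate block 9 (10.1%). Every UUO library was above every CL library for *Klf6* alone, 1 of 10 (0.688% of all genes). *Klf6* stood at 17.6, 33.8, and 95.1 CPM in CL and 126, 173, and 201 CPM in UUO libraries (log2 fold change 2.00 ± 0.30, adjusted p = 7.3e-05). Its VeKO CL libraries split by name form, at 17.6 to 35.5 CPM with a low line and 61.7 to 95.1 CPM without one. The log2 fold change of *Klf6* was 2.65 ± 0.25 (adjusted p = 1.88e-07) with a low line alone and 1.02 ± 0.35 (adjusted p = 0.653) without one. *Jun* stood at 11.6, 22.8, and 34.6 CPM and at 17.3, 99.8, and 189 CPM, with overlap (log2 fold change 2.22 ± 0.44, adjusted p = 0.00162). Its UUO libraries with a low line were at 128 to 189 CPM and those without one at 17.3 to 71.7 CPM. *Atf3* (3.75 ± 0.63, adjusted p = 0.000173), *Myc* (2.90 ± 0.54, adjusted p = 0.00074), *Fosl2* (1.51 ± 0.34, adjusted p = 0.00472), and *Egr1* (1.97 ± 0.60, adjusted p = 0.0364) also passed. The call of *Egr1* was lost without any of 8 of the 29 libraries of the arm, VeKO CL replicates 3, 4, 5, and 6 and VeKO UUO replicates 1, 5, 6, and 7 (highest adjusted p 0.118). Its log2 fold change was 2.64 without VeKO CL replicate 2, and that of *Myc* was 3.51 without VeKO CL replicate 4.

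*Fos* was at 0, 1.87, and 9.06 CPM in VeKO CL libraries, on 0 to 3 counts, and at 6.30, 12.3, and 50.2 CPM in VeKO UUO libraries, on 3 to 30 counts. The groups overlapped, and the log2 fold change was 2.91 ± 0.71 (adjusted p = 0.00719). Against VeWT UUO libraries, which stood at 1.55, 4.84, and 9.79 CPM, those of VeKO gave a log2 fold change of 1.36 ± 0.52, which did not pass the threshold. The difference between the responses of VeKO and VeWT was 2.01 ± 0.98 (unadjusted p = 0.0481, adjusted p = 0.9997). The highest VeKO UUO library, replicate 1, rested on 7 counts.

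Between VeKO and VeWT none of the 10 genes was called by edgeR, with a background of 0% of all genes in UUO kidneys, 0% in CL kidneys, and 0% for the difference of responses. At an unadjusted p under 0.05 the counts were 1, 0, and 1, *Fos* in both cases. DESeq2 called 0 in all 3 and the exact test 0 in both kidneys. Log2 fold changes of VeKO against VeWT in UUO kidneys ran from −0.30 to 1.36, with that of *Fos* the highest.

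The Veptp arm depended on which libraries were used. In libraries without a low line alone, 4 of the 6 genes tested were called higher in VeWT (7.30% of all genes). In VeKO 0 were called by edgeR, 1 (*Klf6*) at an unadjusted p under 0.05, with 0 calls among all genes tested. In libraries with a low line alone 10 of 10 were called in VeWT (13.7% of all genes) and 9 of 10 in VeKO (10.5%). Without the 8 libraries whose numbers carried both genotypes, 5 were called in VeWT (4.67% of all genes) and 2 in VeKO (0.852%), so that calls fell among all genes as well. Without libraries that held both *Xist* and Y-linked transcripts, 7 were called in VeWT (8.20% of all genes) and 7 in VeKO (4.06%). In the other arms 7 were then called in IgG (11.5%), 6 in ABT (8.61%), and 5 in PbWT (8.42%).

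In the Pdgfb arm the rise of *Klf6*, *Jun*, and *Fosl2* was smaller in libraries labelled PbKO. In PbKO 3 of 9 genes, *Klf6*, *Atf3*, and *Myc*, were called higher in UUO than in CL kidneys (3.95% of all genes), with a median log2 fold change of 0.40 over the 9 genes and −0.00 over all genes. In UUO kidneys 4 of 9, *Fosl2*, *Egr1*, *Klf6*, and *Jun*, were called lower in PbKO than in PbWT (6.60% of all genes were called lower), with medians of −0.64 and −0.02. The difference of the responses was called lower for 3 of 9, *Klf6*, *Jun*, and *Fosl2* (1.90% of all genes), with medians of −1.33 and −0.00. Both comparisons and the PbWT response share the PbWT UUO libraries. Without TMM factors the median of all genes was −0.29 in PbKO against PbWT UUO kidneys. On that scale 7 of 9 genes were called lower in PbKO UUO kidneys, where 22.9% of all genes were, and none of the 9 changed sign in that comparison under any setting run.

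**Figure D3:**
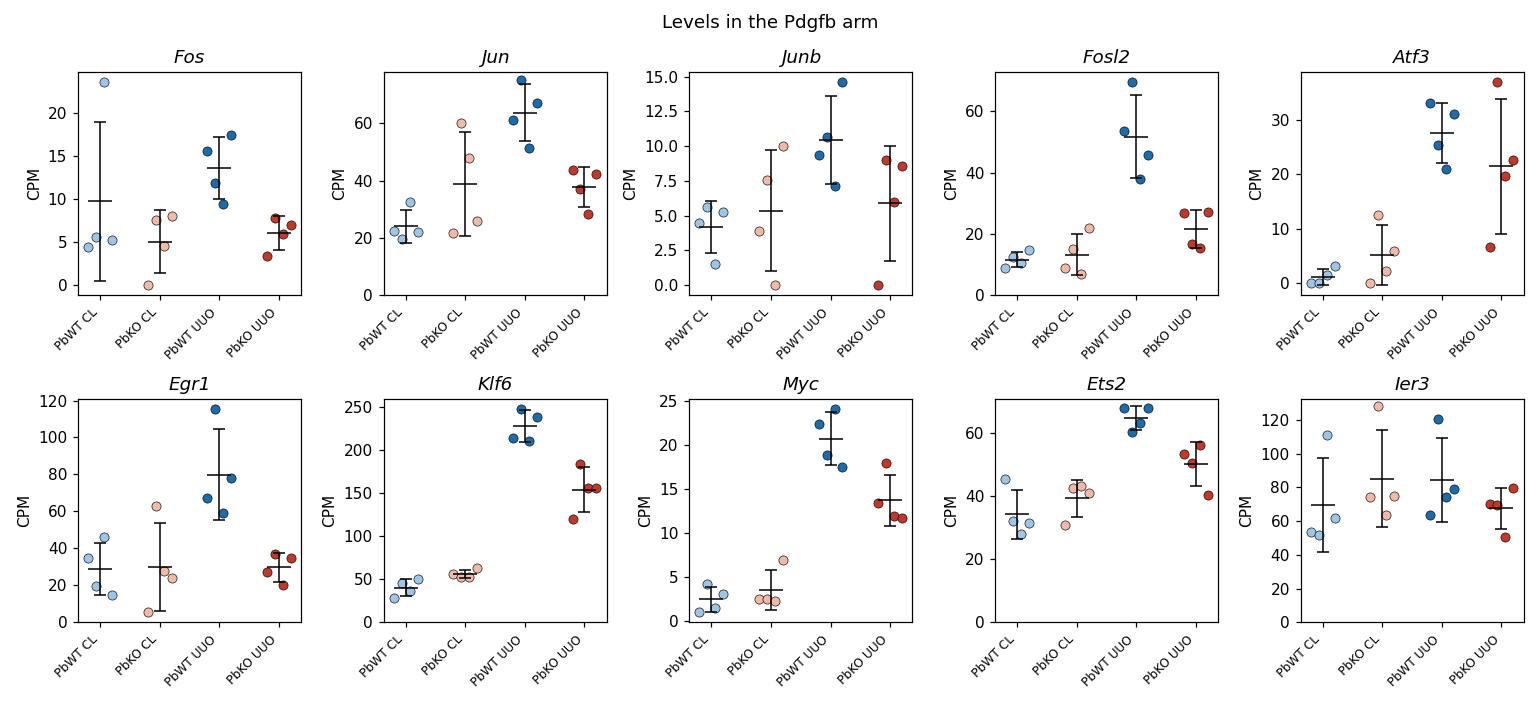
Levels in the 16 libraries of the Pdgfb arm, in CPM, with points for libraries and bars for the mean ± SD of 4. For *Fos*, *Jun*, *Egr1*, *Fosl2*, *Klf6*, and *Ets2* all 4 PbKO UUO libraries lay below all 4 PbWT UUO libraries.

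*Klf6* in PbKO was at 56.5, 52.7, 52.2, and 62.8 CPM in CL and at 121, 184, 156, and 156 CPM in UUO libraries. These groups did not overlap (log2 fold change 1.46 ± 0.17, adjusted p = 2.72e-06), and all 4 UUO libraries were below the PbWT UUO libraries (211 to 248 CPM). The log2 fold change between genotypes was −0.55 ± 0.14 in UUO kidneys (adjusted p = 0.00784), and the responses differed by −1.04 ± 0.23 (adjusted p = 0.00537). Part of that difference lay in the CL kidneys, where all 4 PbKO libraries stood above the 4 PbWT libraries (27.8 to 50.4 CPM). *Klf6* was the only one of the 9 genes with that separation, which 1.13% of all genes had (log2 fold change 0.49 ± 0.18, unadjusted p = 0.0131, adjusted p = 1.00). In CL kidneys edgeR called 0% of all genes and none of the 9 between genotypes, with 1 at an unadjusted p under 0.05 and 0 by DESeq2 or the exact test. The CL log2 fold changes of PbKO against PbWT were 1.81 ± 0.92 for *Atf3*, 0.72 ± 0.57 for *Myc*, and 0.57 ± 0.28 for *Jun*. They were 0.28 ± 0.38 for *Fosl2*, 0.28 ± 0.25 for *Ier3*, 0.17 ± 0.20 for *Ets2*, −0.10 ± 0.44 for *Egr1*, and −0.86 ± 0.61 for *Fos*.

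*Jun* was at 21.8, 60.2, 47.7, and 25.9 CPM in PbKO CL and at 43.5, 37.0, 28.2, and 42.1 CPM in PbKO UUO libraries. The UUO libraries lay within the range of the CL libraries (log2 fold change 0.05 ± 0.26, adjusted p = 0.947). All 4 were below the PbWT UUO libraries (log2 fold change −0.79 ± 0.22, adjusted p = 0.015), a call lost without PbWT UUO replicate 2 or PbKO UUO replicate 3 (highest adjusted p 0.0823). The responses differed by −1.36 ± 0.36 (adjusted p = 0.0175), and without PbKO CL replicate 2, the highest of its group, the adjusted p was 0.0504. Part of that difference also lay in the CL kidneys, where *Jun* was higher in PbKO by 0.57 ± 0.28 without being called.

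*Fosl2* was at 8.99, 15.0, 6.82, and 21.9 CPM in PbKO CL and at 26.8, 16.8, 15.4, and 27.3 CPM in PbKO UUO libraries. These overlapped (log2 fold change 0.56 ± 0.34, adjusted p = 0.381), and all 4 UUO libraries were below those of PbWT (37.9 to 69.8 CPM; log2 fold change −1.31 ± 0.25, adjusted p = 0.00065). The difference of responses was −1.58 ± 0.46 (adjusted p = 0.0311). That call was lost without any of 6 of the 16 libraries, PbWT CL replicate 1 or 3, PbKO CL replicate 4, PbWT UUO replicate 2, or PbKO UUO replicate 2 or 3 (highest adjusted p 0.261).

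*Egr1* was at 5.14, 62.7, 27.3, and 23.9 CPM in PbKO CL and at 26.8, 37.0, 19.7, and 34.3 CPM in PbKO UUO libraries. The CL libraries spread on both sides of the UUO libraries (log2 fold change 0.18 ± 0.43, adjusted p = 0.864). In UUO kidneys it was lower in PbKO than in PbWT by −1.43 ± 0.35 on the log2 scale (adjusted p = 0.00472), without overlap. The responses differed by −1.33 ± 0.56 (adjusted p = 0.156), and without PbKO CL replicate 1 the adjusted p was 0.0199.

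*Fos* was at 15.6, 11.8, 9.47, and 17.5 CPM in PbWT UUO and at 3.35, 7.85, 5.99, and 7.02 CPM in PbKO UUO libraries. The groups did not overlap, but the log2 fold change of −0.99 ± 0.45 did not pass the threshold (adjusted p = 0.129), though it did without TMM factors (adjusted p = 0.0358) and in edgeR's exact test (adjusted p = 0.0295). *Ets2* was at 53.6, 50.5, 56.4, and 40.6 CPM in PbKO UUO libraries, all below PbWT (log2 fold change −0.39 ± 0.16, adjusted p = 0.0968). Complete separation of this kind was present for 6 of the 9 tested genes and for 9.15% of all genes.

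*Atf3* and *Myc* were not called between genotypes. *Atf3* was at 6.70, 37.0, 19.7, and 22.6 CPM in PbKO UUO libraries, on both sides of the PbWT range (log2 fold change −0.21 ± 0.32, adjusted p = 0.707), and it rose in PbKO by 2.33 ± 0.52 (adjusted p = 0.00597). *Myc* was at 13.4, 17.9, 12.0, and 11.7 CPM in PbKO UUO libraries (log2 fold change −0.64 ± 0.25 against PbWT, adjusted p = 0.0802). It rose from PbKO CL libraries at 2.57, 2.51, 2.27, and 6.98 CPM by 1.68 ± 0.40 (adjusted p = 0.0121), a call lost without PbKO CL replicate 1 (adjusted p = 0.0504), while without PbKO CL replicate 4 the value was 2.40. In PbKO the UUO libraries stood above all CL libraries for *Myc* and *Klf6*, 2 of 9 genes (6.12% of all genes). The responses of *Atf3* differed by −2.02 ± 0.98 (adjusted p = 0.227) and those of *Myc* by −1.36 ± 0.63 (adjusted p = 0.203), neither of which was called. Between genotypes *Atf3* differed by −0.21 in UUO kidneys and by 1.81 ± 0.92, higher in PbKO and not called, in CL kidneys. Without PbWT CL replicate 4 the value of *Atf3* was −3.29 (adjusted p = 0.127), and without PbKO CL replicate 4 that of *Myc* was −0.64 (adjusted p = 0.738).

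*Ier3* was at 63.6, 121, 74.2, and 78.9 CPM in PbWT UUO and at 70.3, 69.5, 50.4, and 79.6 CPM in PbKO UUO libraries, which overlapped (log2 fold change −0.34 ± 0.24, adjusted p = 0.348). *Junb* stood at 9.35, 10.6, 7.10, and 14.6 CPM in PbWT UUO and at 0, 8.97, 5.99, and 8.58 CPM in PbKO UUO libraries, on 0 to 18 counts and without a test.

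Markers of several cell types moved with these differences. In UUO kidneys 8 of 10 nephron markers were higher in PbKO than in PbWT, and their summed level was 5698 to 9334 CPM against 3458 to 4275 CPM. All 4 tested fibroblast markers were lower (summed level 230 to 619 against 671 to 947 CPM), as were 2 of 5 macrophage markers (278 to 333 against 372 to 570 CPM) and 2 of 5 endothelial markers (85.5 to 140 against 138 to 182 CPM). Red blood cell markers were higher in PbKO for 3 of 4 tested (564 to 835 against 317 to 421 CPM), and the 1 other leukocyte marker tested was lower (list sum 23.4 to 46.0 against 72.3 to 96.4 CPM). The 1 fat cell marker tested was not called (list sum 23.5 to 212 against 84.8 to 92.5 CPM). The summed level of the 10 genes was 365 to 466 CPM in PbKO and 558 to 756 CPM in PbWT UUO libraries. Obstruction itself moved the same lists in IgG, with 8 of 10 nephron markers lower and 4 of 4 fibroblast and 5 of 5 macrophage markers higher. Markers of the adrenal cortex, a neighbouring organ, summed to 0 to 11.4 CPM in every library. The part of cell composition in the results of the 10 genes was not tested.

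Other genes of the same pathways were counted in the same way. Of all genes tested, 16.3% were called higher and 18.2% lower in IgG, 17.9% and 19.4% in PbWT, 3.95% and 2.42% in PbKO, and 12.0% and 6.60% in PbKO against PbWT UUO kidneys, and each list is to be read against these shares. Of the other AP-1 and small MAF subunits, 1 of 5 tested was called higher in IgG, 2 of 5 in PbWT, and 1 of 5 in PbKO. The one in IgG was *Maff*, a small MAF protein without an activation domain (log2 fold change 2.62 ± 0.46, adjusted p = 9.99e-06). It rose by 2.51 ± 0.52 in PbWT and by 2.26 ± 0.66 in PbKO (adjusted p = 0.0373). *Jund*, the constitutive JUN-family subunit, had a log2 fold change of 1.24 ± 0.61 in IgG (adjusted p = 0.115) and rose by 0.83 ± 0.24 in PbWT (adjusted p = 0.00795).

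Of other immediate-early genes, 2 of 5 tested were higher and 1 lower in IgG, 5 of 10 higher and 1 lower in PbWT, and 0 of 10 called in PbKO by edgeR (1 at an unadjusted p under 0.05). *Btg2*, an antiproliferative gene, rose by 1.21 ± 0.22 in IgG (adjusted p = 4.6e-05) and by 0.95 ± 0.29 in PbWT (adjusted p = 0.0107), and had a log2 fold change of −0.12 ± 0.31 in PbKO. *Klf10*, a TGF-β-inducible Krüppel-like factor, rose by 0.86 ± 0.29 in IgG (adjusted p = 0.0209) and by 1.75 ± 0.33 in PbWT (adjusted p = 0.000138). *Sgk1*, a kinase of sodium transport, fell by 0.75 on the log2 scale in IgG (SE 0.28, adjusted p = 0.0368). In UUO kidneys 2 of 10 were lower in PbKO than in PbWT.

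Kinases that lead to these genes were also measured at the level of RNA. Among MAP kinases and the ETS partners of serum response factor, 1 of 11 was called higher in IgG and 0 of 11 in PbKO by edgeR (0 at an unadjusted p under 0.05), while 3 rose and 3 fell in PbWT. *Elk3*, the ETS partner called in IgG (log2 fold change 1.06 ± 0.29, adjusted p = 0.00426), rose by 1.07 ± 0.27 in PbWT (adjusted p = 0.00254) and was lower in PbKO than in PbWT UUO kidneys (log2 fold change −0.91 ± 0.26, adjusted p = 0.015). Of the feedback inhibitors of ERK signalling, 0 of 4 were called in IgG by edgeR, with 0 at an unadjusted p under 0.05, and 3 of 5 were higher in PbWT. *Spry2* was one of them, with a rise of 1.01 ± 0.39 (adjusted p = 0.0431).

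In the integrated stress response ATF4 controls *Atf3*. Of its genes 5 of 6 were higher in IgG, 4 of 6 in PbWT, and 2 of 6 in PbKO. *Asns*, the ATF4 target asparagine synthetase, rose by 2.25 ± 0.28 in IgG (adjusted p = 7.98e-08), by 1.56 ± 0.34 in PbWT (adjusted p = 0.000651), and by 1.98 ± 0.47 in PbKO (adjusted p = 0.0121). *Atf5* rose by 1.71 ± 0.48 in IgG (adjusted p = 0.00524) and by 1.34 ± 0.35 in PbKO (adjusted p = 0.0206). In UUO kidneys 0 of 6 were called between PbKO and PbWT by edgeR, with 0 at an unadjusted p under 0.05. The heat shock gene *Hspb1* rose by 3.17 ± 0.41 in IgG (adjusted p = 1.35e-07), by 3.99 ± 0.39 in PbWT (adjusted p = 1.66e-08), and by 3.12 ± 0.40 in PbKO (adjusted p = 1.52e-05). The responses of PbKO and PbWT differed by −0.87 ± 0.69 (adjusted p = 0.502), and 2 of 5 tested heat shock genes were called higher in IgG.

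Of the MYC network, 1 of 5 was higher and 2 were lower in IgG, with *Mlxip* at 0.74 ± 0.24 and *Mlx* and *Mxi1* both at −0.50 on the log2 scale. Of MYC targets 4 of 9 were higher and 1 lower in IgG, 7 of 10 and 1 in PbWT, and 1 of 10 and 0 in PbKO. *Npm1*, *Nop58*, and *Nop56*, all of ribosome assembly, rose in IgG by 0.82 ± 0.12, 0.87 ± 0.18, and 0.90 ± 0.22 (adjusted p = 1.03e-06, 0.000235, and 0.00159). The one that fell was *Odc1*, the rate-limiting enzyme of polyamine synthesis (log2 fold change −1.01 ± 0.26 in IgG, adjusted p = 0.00235). In UUO kidneys *Odc1* was higher in PbKO than in PbWT (log2 fold change 1.52 ± 0.25, adjusted p = 0.000117).

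Of other KLF and ETS factors, 6 of 9 were higher and 2 lower in IgG, and 0 of 10 were called in PbKO by edgeR (2 at an unadjusted p under 0.05). *Ets1* rose by 1.05 ± 0.20 (adjusted p = 8.88e-05) and *Elf3*, an epithelial ETS factor, by 1.13 ± 0.33 (adjusted p = 0.00652). *Klf9* fell by 0.80 (SE 0.17, adjusted p = 0.000319) and *Klf15*, a factor of podocytes and metabolism, by 1.47 on the log2 scale (SE 0.39, adjusted p = 0.00321). *Ets1* (log2 fold change −0.93 ± 0.20, adjusted p = 0.00157) and *Elf3* (−1.19 ± 0.31, adjusted p = 0.00727) were lower, and *Klf15* (1.31 ± 0.23, adjusted p = 0.000189) higher, in PbKO than in PbWT UUO kidneys.

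Of textbook AP-1 targets 4 of 6 were higher and 1 lower in IgG, and 5 of 7 and 1 in both PbWT and PbKO. *Timp1*, an inhibitor of matrix proteases, rose by 5.39 ± 0.43 in IgG (adjusted p = 4.39e-14), 3.85 ± 0.30 in PbWT (adjusted p = 1.61e-10), and 3.97 ± 0.47 in PbKO (adjusted p = 2.66e-06). *Cd44*, a hyaluronan receptor, rose by 4.68 ± 0.42 in IgG (adjusted p = 1.85e-11) and by 3.18 ± 0.49 in PbKO (adjusted p = 0.00016), and *Plaur*, the urokinase receptor, by 3.06 ± 0.30 (adjusted p = 2.97e-10) and 2.06 ± 0.53 (adjusted p = 0.0174). In UUO kidneys *Timp1* was lower in PbKO than in PbWT (log2 fold change −1.32 ± 0.22, adjusted p = 8.39e-05), while *Cd44* had a log2 fold change of −0.43 ± 0.30 (adjusted p = 0.358).

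The 10 genes were also compared within groups. For each library the deviation of log2(CPM + 1) from the mean of its group and name form was taken, and Pearson's r was computed over 75 libraries, which share library preparation and depth. Of the 45 pairs 38 had r above 0 and 15 had r above 0.3, and the median was 0.225. The same counts over pairs of other genes were not made, so these are not a result about the 10 genes. The pair most alike was *Fos* and *Egr1* (r = 0.544), followed by *Egr1* and *Ier3* (r = 0.528). *Jun* and *Junb* had the lowest r (−0.18). These values describe the libraries, and weak ones are not a finding at these counts.

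**Figure D4:**
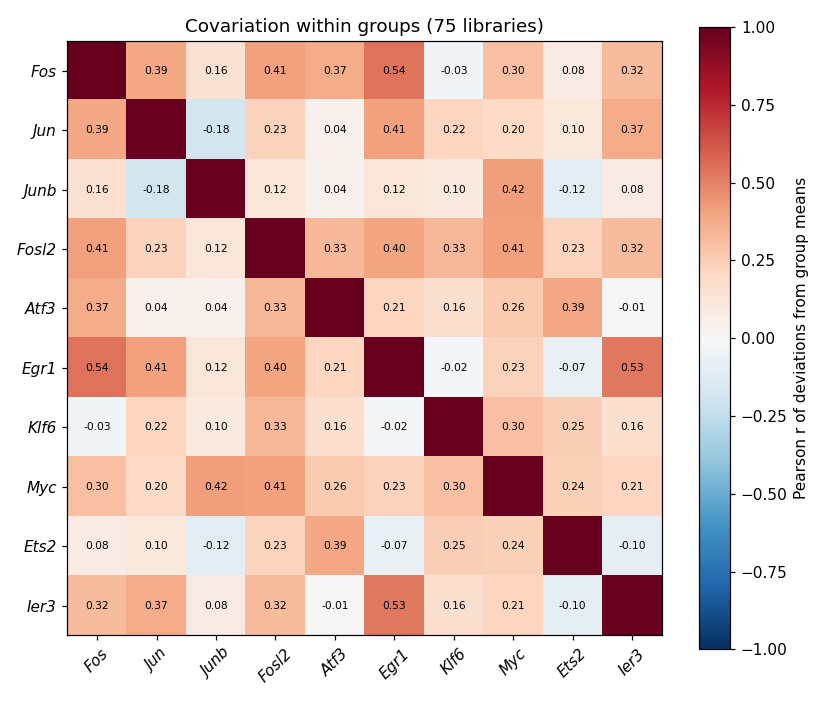
Pearson's r between the 10 genes over deviations from group and name-form means in 75 libraries, with genes on both axes and r as colour. The 45 pairs ran from −0.18 (*Jun* with *Junb*) to 0.544 (*Fos* with *Egr1*).

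Among the genes with a mean count of at least 20, those most like *Fos* were *Egr1* (r = 0.544), *Zfp36* (r = 0.542), and *Ccn1* (r = 0.499), all 3 of them immediate-early genes by textbook knowledge. *Jun* was most like *Btg2* (r = 0.495), *Kat7* (r = 0.481), and *Atf7ip* (r = 0.475). *Egr1* was most like *Ccnl1* (r = 0.53), *Ier3* (r = 0.528), and *AC149090.1* (r = 0.517), and *Ier3* most like *Egr1*, *Tanc1* (r = 0.52), and *Chd9* (r = 0.507). *Fosl2* was most like *F11r* (r = 0.606), *Adamts1* (r = 0.603), and *Pcdhga11* (r = 0.598), and *Klf6* most like *Pbdc1* (r = 0.587), *Plat* (r = 0.564), and *Adamts1* (r = 0.54). For *Atf3* these were *Vps72* (r = 0.589), *Mrps15* (r = 0.543), and *Eif4ebp1* (r = 0.532), for *Myc* *Aebp1* (r = 0.62), *Trmt1l* (r = 0.565), and *Zcchc7* (r = 0.562), and for *Ets2* *Mrps15* (r = 0.5), *Zfp36l1* (r = 0.495), and *Cnep1r1* (r = 0.457). *Junb* was most like *Daxx* (r = 0.66), *P4ha2* (r = 0.556), and *Akr1b10* (r = 0.532). Each ranking was taken over 7563 or 7564 genes.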

How the data were processed

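Whole-kidney RNA of 75 mouse kidneys was made into Smart-seq3 libraries, each sample in 4 wells whose reads were merged. The authors deposited 1 table of raw counts per gene and library, whole numbers without normalization. The submitters' processing notes name STAR 2.7.3a, UMI-tools 1.1.4, featureCounts, Subread 1.4.6-p5, and mm10. Duplicate reads were removed by unique molecular identifiers before counting. Use of strand in counting is not given in the sources used here, and genes that overlap an antisense gene are uncertain for that reason. Sample titles gave the column of each library, and groups came from the labels.

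Tests used edgeR 4.0.16 (limma 3.58.1) under R 4.3.3, with DESeq2 1.42.0 as an alternative. Tables were made in Python 3.11.15 by pandas 2.3.3, numpy 2.4.6, and scipy 1.17.1, and plots by matplotlib 3.10.9. Each arm was fitted over its 4 groups, which share 1 estimate of the spread, with TMM factors, the default low-count filter by group, and glmQLFTest without legacy dispersions. P-values were adjusted over all genes tested in the arm at a threshold of 0.05. Each SE was obtained by dividing the absolute log2 fold change by the square root of F. Simulated counts with known changes were used to test the scripts.

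The 10 genes, the lists beside them, and the tests were chosen with earlier results of these data known. All 10 genes were named in every comparison, of each further list up to 4 genes with the lowest adjusted p in IgG, and for likeness the 3 genes with the highest r. No 2 libraries of a group agreed within counting noise over 214 pairs (lowest chi-square per degree of freedom 1.41). In ABT mice 3 numbers (9, 11, and 12) were shared by a CL and a UUO library, and the deviations of these pairs from their group means correlated at 0.563, 0.343, and 0.315 over 5682 genes, against −0.193 between different numbers, so these numbers were taken as pairs. In the Veptp arm the correlations over 8621 genes were 0.0845, 0.184, 0.266, and 0.512 for numbers 5, 6, 1, and 2, each of 1 genotype. They were 0.540, 0.352, 0.177, and 0.335 for numbers 3, 4, 7, and 8, which carried both genotypes. Different numbers gave a mean of −0.0435. Since not all were above 0.1 and 4 numbers carried both genotypes, the numbers of this arm were not taken as pairs. Whether numbers 3, 4, 7, and 8 name the same mice under crossed labels was not tested.

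Alternatives were no TMM factors, DESeq2, no filter, a mean count of at least 20, the exact test of edgeR that the study names, thinning to the shallowest library of the arm, the name form (with or without a low line) as a model term, libraries of 1 name form at a time, a replicate block, and each library left out. Leaving out the 8 Veptp-arm libraries with conflicting numbers, or libraries with both *Xist* and Y-linked transcripts, was added after the data were seen. RefSeq sequences were those of GRCm38.p6, and *Myc* and *Egr1* were not matched.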

Additional observations from a re-analysis of the deposited data

Results flagged for a closer look

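In each of 120 combinations of gene and group, gaps between libraries were taken on the log2(CPM + 1) scale. The gap between the highest or lowest library and its neighbour, as a share of the range, was compared with Dixon's critical value at 95%. Chance passes that value in about 1 in 20 groups. *Fos* was at 23.7 CPM (16 counts) in PbWT CL replicate 3, with the next library at 5.59 CPM. *Junb* was at 0 CPM in PbKO UUO replicate 1, with the next at 5.99 CPM. *Myc* was at 2.03 CPM, 1 count, in ABT UUO replicate 1, with the next at 15.9 CPM, and at 6.98 CPM (7 counts) in PbKO CL replicate 4, with the next at 2.57 CPM. *Ets2* was at 30.8 CPM in PbKO CL replicate 1, with the next at 40.9 CPM. These were 5 of the 120.

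The response to UUO differed between libraries labelled PbKO and PbWT in the test of the difference itself for *Jun* (−1.36 on the log2 scale), *Fosl2* (−1.58), and *Klf6* (−1.04). Each was smaller in PbKO. In the CL kidneys that enter these differences *Pdgfb* was not lower in PbKO.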

How the results depend on the processing

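The calls changed with depth, with the form of library name, and with the 8 libraries of conflicting number. *Fos* and *Junb* rested on few counts in most groups, and levels near 0 in CL kidneys make the folds of *Atf3* and *Myc* imprecise. In VeKO libraries without a low line there were 2 CL kidneys. The exact test could not be applied to differences of responses, and no fit without libraries holding both *Xist* and Y-linked transcripts was possible in PbKO UUO kidneys, which had none left. Of 120 median levels, 4 moved by 1 SD or more on plain library totals.

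Numbers of genes called changed by over 1.5 times in these cases. With a mean count of at least 20 the number was 2 of 3 tested in IgG (20.5% of all genes), 2 of 3 in ABT (13.6%), and 1 of 6 in PbKO (4.73%), where fewer genes were tested. With the exact test it was 4 in IgG (16.6% of all genes), where only 5 of the 10 genes passed its low-count filter. None that was tested lost its call. Thinned to the shallowest library it was 2 of 3 in IgG (16.8%), 1 of 3 in ABT (10.5%), 3 of 6 in VeWT (6.48%), and 3 of 6 in VeKO (2.41%), by the loss of counts. In libraries without a low line it was 4 in VeWT (7.30% of all genes) and 0 in VeKO (edgeR, 1 at an unadjusted p under 0.05, with 0% of all genes called). Without the 8 libraries of conflicting number it was 2 in VeKO (0.852%). Without TMM factors it was 7 for PbKO against PbWT UUO kidneys (22.9%). For the last 3 the cause was not tested. With 1 library left out the numbers were 7 in IgG and in VeWT for every library, 5 to 7 in ABT, 5 to 8 in VeKO, 7 to 9 in PbWT, 2 to 3 in PbKO, 3 to 4 for PbKO against PbWT UUO kidneys, and 2 to 4 for the Pdgfb difference.

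Log2 fold changes that changed sign were all of values that did not pass the threshold, apart from *Egr1* in VeKO. *Ier3* in UUO against CL kidneys was −0.0398 (IgG, no filter), −0.293 (IgG), −0.208 (VeWT), and −0.628 (VeKO) in libraries without a low line, and −0.0624 in VeKO without the 8 libraries. In ABT it was 0.0398 without TMM factors, 0.0102 at a mean count of at least 20, 0.155 when thinned, 0.559 with a low line, and 0.222 without libraries of both *Xist* and Y-linked transcripts. *Egr1* was −0.0247 in VeKO without a low line. When thinned, *Jun* was −0.0302 and *Egr1* −0.228 in PbKO. For ABT against IgG UUO kidneys, *Atf3* was −0.175 and *Fosl2* 0.329 without a low line, and *Klf6* was 0.193, *Ets2* 0.105, and *Ier3* −0.310 with one. *Ier3* was also −0.0512 when thinned, −0.0104 with the form as a covariate, and −0.106 without libraries of both *Xist* and Y-linked transcripts. For VeKO against VeWT UUO kidneys without a low line, *Jun* was −0.00306, *Klf6* −0.0533, and *Ier3* −0.00661. *Fosl2* was 0.0276 when thinned and 0.0361 with a low line, and *Junb* was −0.104 without libraries of both *Xist* and Y-linked transcripts.

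With the replicate block, *Ier3* was 0.0698 in ABT, and *Egr1* was 0.209 and *Atf3* −0.127 for ABT against IgG. In the Veptp arm, where the numbers were not taken as pairs and 4 of 8 CL libraries correlated best with the UUO library of their own number, *Myc* was −0.0991 and *Ier3* −0.00881 for VeKO against VeWT, and the block moved the genes called from 7 to 8 in VeWT and from 7 to 9 in VeKO, while all genes called higher went from 10.0 to 14.3% and from 4.47 to 10.1%. In ABT it changed no call other than that of *Egr1*.

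With 1 library left out, *Ier3* was −0.131 to 0.118 in IgG, −0.275 to 0.102 in ABT, −0.0173 to 0.683 in VeWT, and −0.0816 to 0.975 in VeKO. For ABT against IgG UUO kidneys, *Atf3* was −0.143 to 0.367, *Fosl2* −0.321 to 0.0292, *Klf6* −0.147 to 0.0433, and *Ier3* −0.112 to 0.218. For VeKO against VeWT UUO kidneys, *Junb* was −0.211 to 0.337, *Myc* −0.0528 to 0.291, and *Ier3* −0.0980 to 0.269. In PbKO, *Fos* was −0.0938 to 1.04, *Jun* −0.155 to 0.306, and *Egr1* −0.229 to 0.713, and the Pdgfb difference of *Fos* was −0.954 to 0.510.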
